A study of Mus musculus with 148 samples.

Results

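The adult ileum was represented by 24 of the 148 samples of the study. These were the libraries labelled P60 and segment 7, 8 or 9, with 8 samples in each segment, chosen by those labels alone. All came from mice at postnatal day 60 with no milk treatment, of a strain labelled C57BL/6MCrl and written C57BL/6NCrl in the growth protocol, and segments 7, 8 and 9 were labelled proximal, medial and distal ileum. Enterocytes were released from each piece of intestine by a chelating method, so every value is an average over the cells of 1 preparation, and a change of state within enterocytes and a change in the cells recovered cannot be told apart. Bisulfite-treated DNA was captured with padlock probes along *Lct* and *Mcm6* on chromosome 1 and at imprinted loci elsewhere. Bisulfite sequencing does not separate methylation from other protected cytosine forms, and the readout is therefore called DNA modification, the percentage of reads at a cytosine and strand that resisted conversion. The labels do not tie samples to mice. The series' description gives fewer adults per segment than there are samples, so some samples of a segment may share a mouse. The p-values may then be too small. The main comparison was segment 9 against segment 7, with segment 8 as the step between them. For comparison, P90 mice (postnatal day 90) that had drunk lactose-free or lactose-containing (LAC) milk in place of water for 60 days supplied segments 7 and 8.

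*Lct* encodes lactase, the brush-border enzyme that splits milk lactose, and its activity in the adult small intestine is centred on the jejunum and falls off towards the distal ileum. *Mcm6* is its upstream neighbour and encodes a subunit of the MCM helicase that unwinds DNA for replication. Introns of *MCM6* carry regulatory sequence for lactase in humans, intron 13 among them. At imprinted loci such as *Zdbf2* and *Peg13*, 1 parental allele is methylated and the other is not, so that DNA modification near the middle of the scale is usual there in any tissue.

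Read totals over all cytosines ranged from 36464590 to 101337766 per sample, and the median CpG of the locus above the minimum of 30 reads was read 1083 to 3361 times. Depth was uneven between segments. Replicates 5, 7 and 8 of segment 9 had 99723839, 101337766 and 99286772 reads, and replicate 5 of segment 7 had 89445941. No other sample had more than 51680522. The quasi-binomial F test gives deeper samples more weight. Of the CpGs tested, 665 lay in the *Lct*–*Mcm6* locus and 887 in the other targets. Here and in the counts below, the strands of a CpG were tested and counted separately, so there were fewer CpG positions than these counts. CpH sites of the locus, which bound the failure of conversion, stood at 0.375% ± 0.0227, 0.366% ± 0.0195 and 0.383% ± 0.0300 (mean ± SD over 8 samples) from the proximal to the distal piece. None of 10385 CpH sites passed the quasi-binomial F test between segments 9 and 7 after Bonferroni correction or Benjamini-Hochberg adjustment, and 379 had an unadjusted p under 0.05. Each segment was spread over sequencing lanes 5, 6 and 7 in the same numbers (3, 2 and 3 samples). Within segment 9, replicate 1 had the lowest value at most *Mcm6* sites that differed, and within segment 7, replicate 7 had the highest.

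Between segments 7 and 9, 12 of 1552 CpGs differed (0.773% of those tested, quasi-binomial F test with Bonferroni adjustment at 0.01). Their sequence contexts are shown because these sites carry the comparison. All are forward-strand sequence of GRCm38, written 5′ to 3′, with capitals at the CpGs whose values are given. The first window crosses the boundary of *Mcm6* exon 13 and intron 13, the second lies further into intron 13, and the third lies in *Mcm6* intron 3 (*Mcm6* is read from the reverse strand, so intron 13 stands to the left of exon 13).
*Mcm6* exon 13–intron 13, chr1:128338069-128338181: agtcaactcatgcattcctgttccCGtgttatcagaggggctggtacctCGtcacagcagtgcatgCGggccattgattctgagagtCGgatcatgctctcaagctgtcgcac
*Mcm6* intron 13, chr1:128337867-128337916: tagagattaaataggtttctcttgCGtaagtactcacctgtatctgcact
*Mcm6* intron 3, chr1:128353211-128353260: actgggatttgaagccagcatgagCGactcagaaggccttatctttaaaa
Outside the locus, the sites fell in *Zdbf2* and in the *Peg13*–*Trappc9* region.
*Zdbf2*, chr1:63275047-63275096: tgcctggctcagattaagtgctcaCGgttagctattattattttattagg
*Peg13*–*Trappc9*, beyond the *Peg13* transcript, chr15:72803998-72804099: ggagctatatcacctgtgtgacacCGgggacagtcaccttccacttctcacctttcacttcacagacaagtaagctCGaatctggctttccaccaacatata
*Peg13* exon, chr15:72808293-72808394: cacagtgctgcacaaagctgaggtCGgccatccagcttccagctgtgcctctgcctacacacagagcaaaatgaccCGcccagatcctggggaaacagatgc
Sites of *Lct* that are described with them, without having passed the same threshold, lay in intron 2 and just upstream of the start of transcription.
*Lct* intron 2, chr1:128314495-128314544: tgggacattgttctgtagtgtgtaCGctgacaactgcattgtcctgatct
*Lct* start, chr1:128328309-128328338: aggaactgctagaaCGgtgtggaaggaatc

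All 7 called CpGs of the locus were more modified in the distal ileum, and all 7 lay in *Mcm6*. Both strands of 1 CpG are among the 7. Outside the locus, 1 CpG was higher and 4 were lower in segment 9. With Benjamini-Hochberg adjustment at 0.05 in place of Bonferroni, 82 CpGs passed (5.28% of those tested), of which 46 were in the locus, 44 of them higher in segment 9 and 2 lower. Among the other targets 36 passed, 19 higher and 17 lower. Without replicate 1 of segment 9 the Bonferroni count was 11, and without replicate 7 of segment 7 it was 13, with 9 of the 12 CpGs called again in each case. All 7 CpGs of the locus and the 1 that was higher outside it were among those called again, while 3 of the 4 lower ones were lost in each case. The count was 4 to 7 without any 1 of replicates 2, 3, 4, 5, 6 and 8 of segment 7 or of replicates 2, 4, 5, 6, 7 and 8 of segment 9. The median difference over all tested CpGs of the locus was 0.228 percentage points, and 65.7% of them were higher in segment 9, against a median of -0.0773 points and 46.9% in the other targets.

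The largest differences lay at the CpG 22 bases into *Mcm6* intron 13. On the reverse strand (chr1:128338094) DNA modification in segment 7 ranged from 19.7% to 44.3% with a median of 29.2%. In segment 8 it ranged from 25.96% to 58.8% with a median of 49.7%, and in segment 9 from 48.5% to 69.9% with a median of 64.6%. No value of the distal ileum reached down to the proximal ones, while segment 8 overlapped both. The mean rose from 29.4% ± 7.61 to 63.6% ± 6.46 (here and below ± is the SD over 8 samples), a difference of 34.2 points (Bonferroni p = 9.1e-05, quasi-binomial F test; exact permutation p = 0.000155, the smallest that 8 samples against 8 can give). The forward strand of the same CpG (chr1:128338093), captured separately, rose from 32.9% ± 8.57 to 67.3% ± 4.89, by 34.4 points. Within lanes 5, 6 and 7 the difference on the reverse strand was 39.1, 24.2 and 36.1 points. Leaving out any 1 of the 16 samples, the 2 libraries named above included, left this difference between 32.9 and 36.4 points and past the threshold. Exact permutation p-values of single CpGs were not adjusted, here or below. Any lack of overlap between 8 samples and 8 gives the smallest possible value.

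The exon side of the boundary was already mostly modified in the proximal ileum and was more so in the distal ileum. At 3 CpGs of *Mcm6* exon 13, lying 3, 20 and 41 bases before its last base, the reverse strand rose from 58.6% ± 8.31 to 78.9% ± 3.35, from 60.1% ± 9.88 to 84.4% ± 2.85 and from 66.9% ± 10.8 to 89.4% ± 2.32. The groups did not overlap at any of these sites: at the last one the highest sample of segment 7 reached 81.6% and the lowest of segment 9 stood at 83.98%. Bonferroni p was 0.00748, 0.00217 and 0.00717. These CpGs and the one 22 bases into the intron were read on the same captured strand to nearly the same depth (medians of 3157.5 to 3159 reads), so they share molecules and are not independent. On the forward strand the same 3 CpGs rose by 17.4, 20.6 and 17.4 points with Bonferroni p of 0.0309, 0.0402 and 0.0491. In the 16 fits that left out 1 sample, the calls 3 and 41 bases before the exon end held in 3 each and the call 20 bases before it in 14.

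Further into intron 13 (chr1:128337892, reverse strand), the mean rose from 67.7% ± 5.41 through 75.7% ± 7.32 to 83.98% ± 3.11, a difference of 16.3 points (Bonferroni p = 0.00185, exact permutation p = 0.000155). The lowest sample of segment 9 stood at 76.8% and the highest of segment 7 at 76.6%, so the groups only just failed to overlap. By Benjamini-Hochberg adjustment and with strands counted separately, 11 of the 12 tested CpGs of exon 13 and 5 of the 7 of intron 13 passed. All of them were higher in segment 9. The reverse-strand CpG at chr1:128338195 lay only under a probe arm, as did 48 tested CpGs in all, whose median modification was 2.47%. It read 7.42% in segment 7 and 9.90% in segment 9, and the mean of exon 13 includes it.

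**Figure D1:**
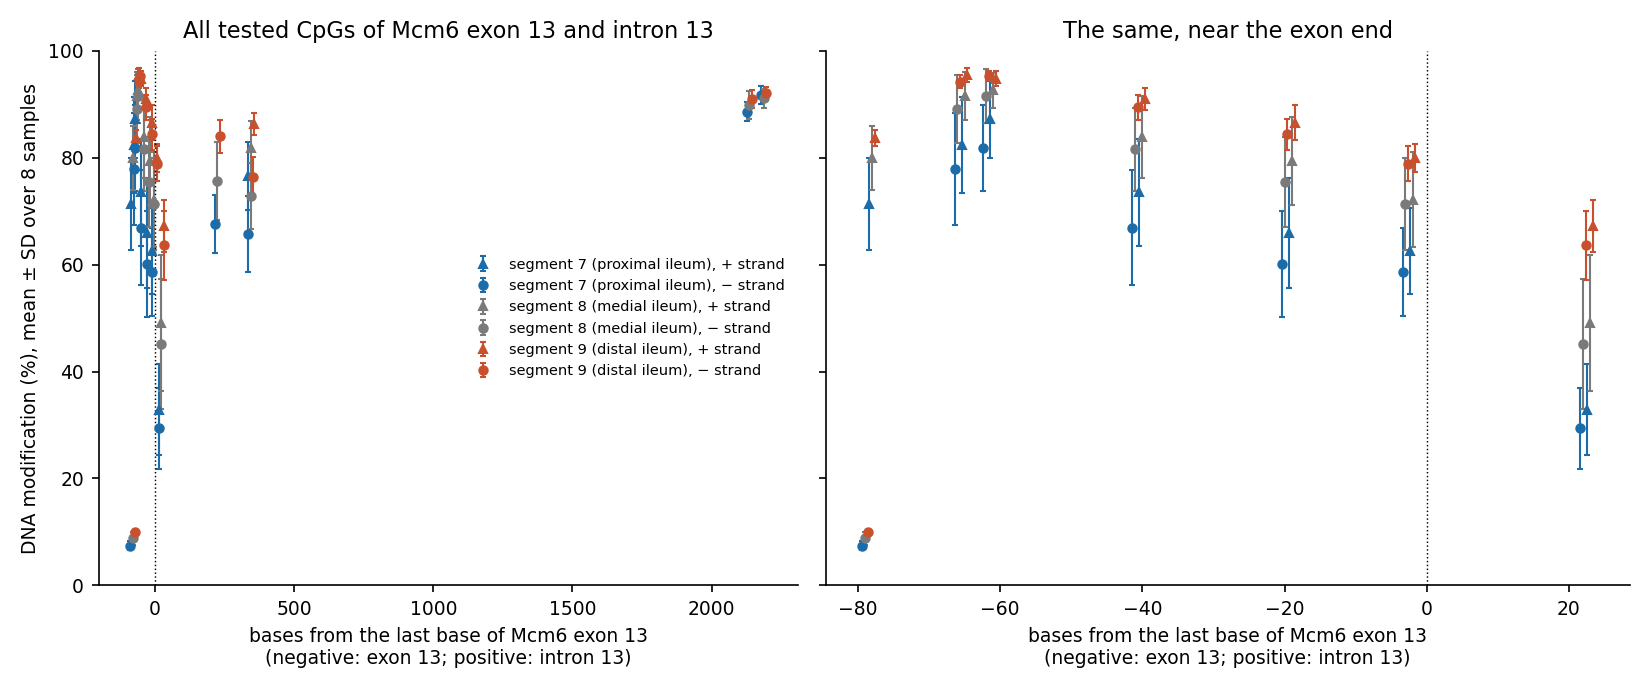
DNA modification (%, mean ± SD over 8 samples) at every tested CpG of *Mcm6* exon 13 and intron 13, against distance in bases from the last base of exon 13 (left, all; right, near the exon end), for segments 7, 8 and 9 and both strands. Near the boundary each site is lowest in segment 7 and highest in segment 9, with the widest gap at 22 and 23 bases into the intron (reverse strand 29.4%, 45.2% and 63.6%), and the segments lie close together at the far end of the intron and at the reverse-strand site near 80 bases into the exon that only a probe arm covers.

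A separate site lay in *Mcm6* intron 3 (chr1:128353235, forward strand). Its values in segment 7 ran from 31.8% to 49.8% with a median of 38.7%, and in segment 9 from 47.98% to 55.5% with a median of 53.04%. The groups overlapped through 1 library, replicate 7 of segment 7, at 49.8%. The mean rose from 38.7% ± 5.27 to 52.5% ± 2.80, by 13.8 points (Bonferroni p = 0.00528, exact permutation p = 0.000311), and the reverse strand rose by 17.04 points (Bonferroni p = 0.0409). The call on the forward strand held in 4 of the 16 fits that left out 1 sample, with differences of 12.8 to 15.4 points. In *Mcm6* intron 6 no CpG passed the Bonferroni threshold, although 3 of 5 passed after Benjamini-Hochberg adjustment, led by chr1:128348622, at 67.9% ± 1.72 in segment 7 and 73.4% ± 1.70 in segment 9.

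Averaged over annotated exons, introns and flanks with at least 3 tested CpGs, 10 of 60 features of the locus differed between segments 9 and 7 (16.7%, exact permutation test with Benjamini-Hochberg adjustment over features and targets together). All 10 were higher in segment 9. Of the 60 features, 49 had a higher mean in segment 9, with a median difference of 0.395 points. *Mcm6* contributed 4. *Mcm6* exon 13 rose from 66.3% ± 8.30 through 76.4% ± 6.05 to 81.9% ± 1.55, and *Mcm6* intron 13 from 64.6% ± 4.76 through 72.2% ± 6.11 to 80.1% ± 3.00. *Mcm6* intron 3 rose from 61.3% ± 3.86 to 70.1% ± 2.50 and *Mcm6* intron 6 from 80.5% ± 0.982 to 83.9% ± 1.02. Adjusted p was 0.0031 for exon 13, intron 13 and intron 6 and 0.0075 for intron 3 (exact permutation test, Benjamini-Hochberg). In exon 13, intron 13 and intron 6 the 8 samples of segment 9 lay above all 8 of segment 7. Of all 80 features and targets, 4 were without overlap between these segments. The 5′ end of *Mcm6* was little modified: intron 1 stood at 9.35% ± 0.948 and 10.1% ± 0.706 (adjusted p = 0.276, exact permutation test, Benjamini-Hochberg), and the sequence between *Mcm6* and *Dars* at 17.9% ± 0.252 and 18.1% ± 0.197.

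*Lct* contributed the other 6 features, with smaller differences. Intron 2 rose most, from 49.1% ± 1.89 through 51.1% ± 2.74 to 54.4% ± 1.66, by 5.24 points, and its samples did not overlap between segments 7 and 9 (adjusted p = 0.0031, exact permutation test, Benjamini-Hochberg). Exon 4 stood at 74.2% ± 2.72, 78.8% ± 1.96 and 77.9% ± 1.39 in segments 7, 8 and 9, and was the 1 passing feature in which segment 8 was not between the other segments. Exon 9 rose by 1.33 points to 88.9% ± 0.629 (adjusted p = 0.0228, exact permutation test, Benjamini-Hochberg). Exon 1, intron 3 and exon 16 rose by 1.00, 1.02 and 0.419 points from levels of 88.3%, 85.7% and 95.1%, each with an adjusted p of 0.0463 (exact permutation test, Benjamini-Hochberg), as had exon 4. When 1 sample was left out in turn, these 4 features with an adjusted p of 0.0463 held in 2 to 5 of 16 settings, whereas *Lct* intron 2 and exon 9 and the 4 *Mcm6* features held in all 16. *Lct* intron 9 did not pass, at 71.9% in segment 7 and 73.4% in segment 9 (adjusted p = 0.0889, exact permutation test, Benjamini-Hochberg).

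**Figure D2:**
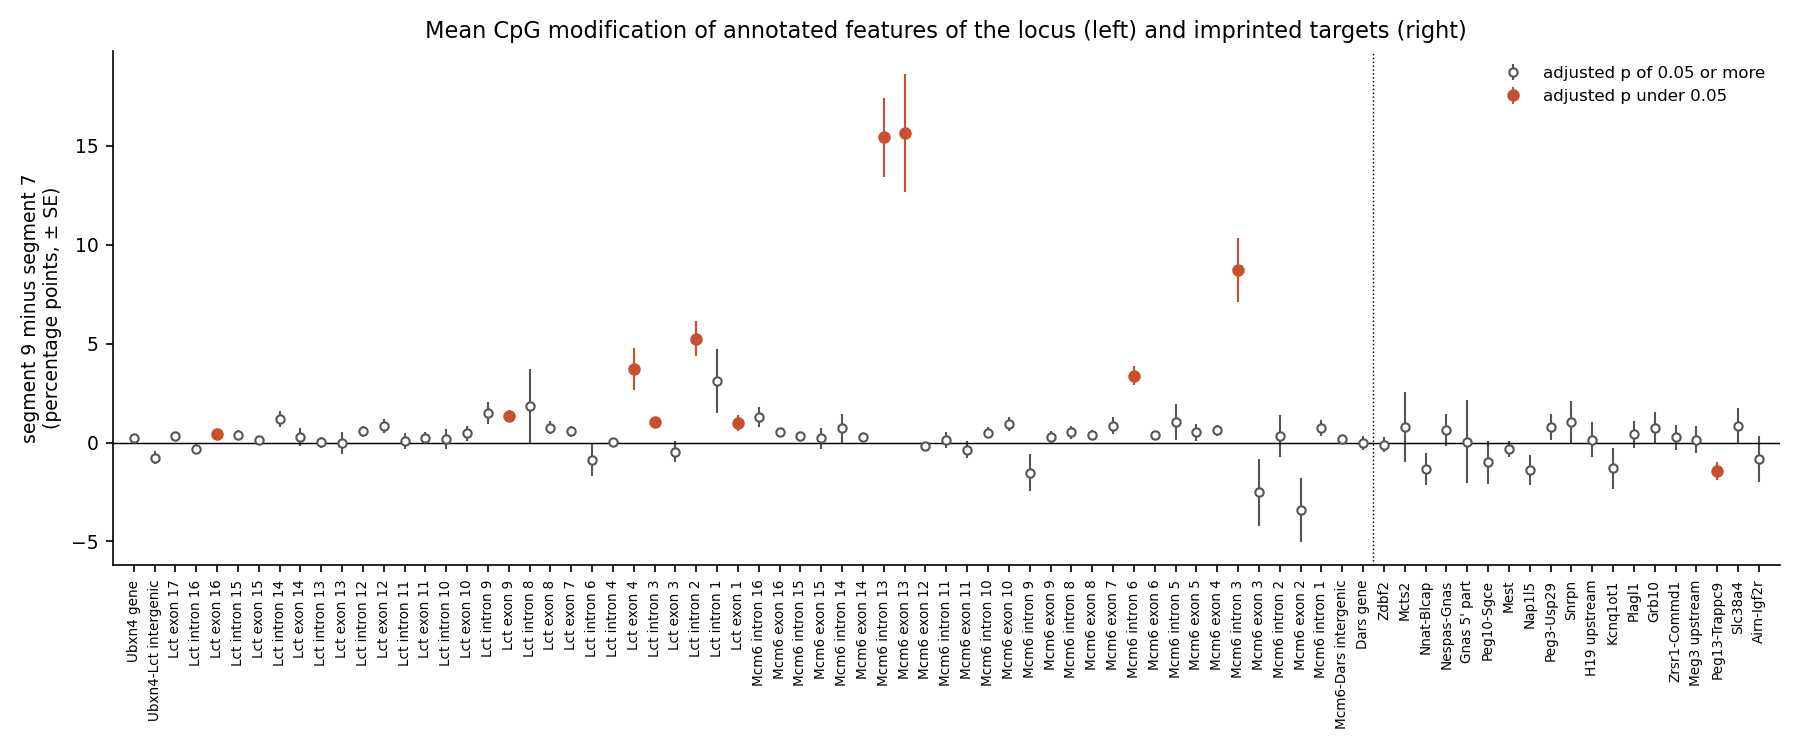
Difference in mean CpG modification between segment 9 and segment 7 (percentage points, ± SE) for each annotated feature of the *Lct*–*Mcm6* locus in order along chromosome 1 (left of the dotted line) and for 19 of the 20 imprinted targets (right), with filled points where the adjusted p was under 0.05. *Mcm6* exon 13 and intron 13 stand highest at 15.6 and 15.4 points, followed by *Mcm6* intron 3 at 8.72 and *Lct* intron 2 at 5.24, and *Peg13*–*Trappc9* is the filled point below 0, at -1.44.

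Within *Lct* intron 2 the difference was carried by a few neighbouring CpGs. At chr1:128314520 (reverse strand) segment 7 ranged from 42.9% to 62.4% with a median of 57.5%, segment 8 from 48.2% to 74.1% with a median of 67.95%, and segment 9 from 63.4% to 80.7% with a median of 76.4%. Segments 7 and 9 did not overlap, and the means differed by 19.9 points. This was the largest rise in *Lct*, but it did not pass the Bonferroni threshold (p = 0.0219; exact permutation p = 0.000155). The forward strand of the same CpG rose from 54.4% ± 6.55 to 74.0% ± 5.93. The next tested CpG (chr1:128314549) was much less modified and read 15.8% ± 2.56 in segment 7 and 26.8% ± 5.82 in segment 9 on the reverse strand. By Benjamini-Hochberg adjustment, 5 of the 16 CpGs tested in this intron passed, all higher in segment 9. In *Lct* exon 9 the leading CpG (chr1:128298481) rose from 69.5% ± 3.23 to 77.3% ± 1.95 without overlap (Bonferroni p = 0.0535, exact permutation p = 0.000155). At the leading CpG of *Lct* intron 3 (chr1:128311682) segments 7 and 9 stood at 72.6% ± 2.57 and 78.6% ± 1.35, also without overlap (Bonferroni p = 0.0928, unadjusted exact permutation p = 0.000155). These leading CpGs had the lowest p of their feature in the same comparison. Their lack of overlap and their exact p are therefore descriptions.

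Between *Lct* and *Mcm6*, 1 CpG position was tested, on both strands. It lies directly upstream of the start of *Lct* transcription, 5 bases away on the forward strand and 6 on the reverse, and it was largely unmodified. On the forward strand (chr1:128328323) it read 11.6% to 17.7% in segment 7, 10.9% to 26.9% in segment 8 and 19.8% to 31.04% in segment 9. Segments 7 and 9 did not overlap, and the means were 15.2% ± 2.41 and 23.7% ± 4.36. The difference of 8.47 points passed Benjamini-Hochberg adjustment (0.0137) but not Bonferroni (0.724), with an exact permutation p of 0.000155. On the reverse strand the same CpG was read 327 times at the median, and rose from 12.0% ± 4.88 to 22.2% ± 6.72 with overlap (Bonferroni p = 1, exact permutation p = 0.00295). *Lct* exon 1, which follows directly, was by contrast 88.3% modified in segment 7.

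Of the 20 imprinted targets, 1 differed (5%), and its direction was down. The mean over the 83 CpGs of *Peg13*–*Trappc9* on chromosome 15 fell by 1.44 points, from 63.8% ± 0.309 through 63.1% ± 1.17 to 62.4% ± 1.19 (adjusted p = 0.0463, exact permutation test, Benjamini-Hochberg), and the samples overlapped. *Peg13* is a paternally expressed noncoding RNA gene inside *Trappc9*. In 14 of 16 settings that left out 1 sample this target no longer passed, the exceptions being the settings without replicate 2 or 3 of segment 9, and within lanes 5, 6 and 7 the difference was -0.119, -1.40 and -2.79 points. Single CpGs of the region moved further. The 4 that passed the Bonferroni threshold were chr15:72804022 and chr15:72804074, downstream of the *Peg13* transcript within *Trappc9*, and chr15:72808317 and chr15:72808369, in the *Peg13* exon. Their differences were -6.75, -8.04, -5.56 and -5.53 points, from levels in segment 7 of 66.2% ± 2.10, 41.8% ± 2.18, 63.3% ± 1.50 and 70.6% ± 1.12. At none of the 4 did segments 7 and 9 overlap, and the same held for 10 of the 12 called CpGs in all. Called CpGs were chosen on this difference, and the share without overlap among all tested CpGs was not counted. Bonferroni p at the 4 was 0.00356, 0.00527, 0.00914 and 0.00626. Each pair was read on 1 strand to nearly the same depth (medians of 4295 and 4296 reads, and of 3922 and 3924). Within each lane all 4 were lower in segment 9. All 14 CpGs of this target that passed Benjamini-Hochberg adjustment were lower in segment 9. When 1 sample was left out in turn, these calls held in 9, 4, 1 and 1 of 16 settings.

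*Zdbf2*, a paternally expressed gene on chromosome 1, did not pass as a whole target, at 41.7% ± 0.807 and 41.6% ± 0.739 over all its tested CpGs (adjusted p = 0.871, exact permutation test, Benjamini-Hochberg). Its CpG at chr1:63275071 (forward strand), in an intron, passed. Segment 7 ranged from 12.2% to 27.5% with a median of 16.5%, segment 8 from 13.7% to 32.2% with a median of 25.9%, and segment 9 from 26.3% to 34.3% with a median of 32.9%. Segments 7 and 9 overlapped through the highest sample of segment 7 (replicate 7) and the lowest of segment 9 (replicate 1), which were also the highest and the lowest of their segments at the CpG 22 bases into *Mcm6* intron 13, where the groups did not overlap. The mean rose from 17.2% ± 4.62 to 32.4% ± 2.58, by 15.2 points (Bonferroni p = 0.00199, exact permutation p = 0.000311). Within lanes 5, 6 and 7 the difference was 17.7, 9.18 and 16.6 points, and 15 of the 16 settings without 1 sample kept the call. Over the remaining targets of which the mean did not pass, differences ran from -1.38 points at *Nap1l5* to 1.03 at *Snrpn*, and 11 of the 20 targets were higher in segment 9.

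**Figure D3:**
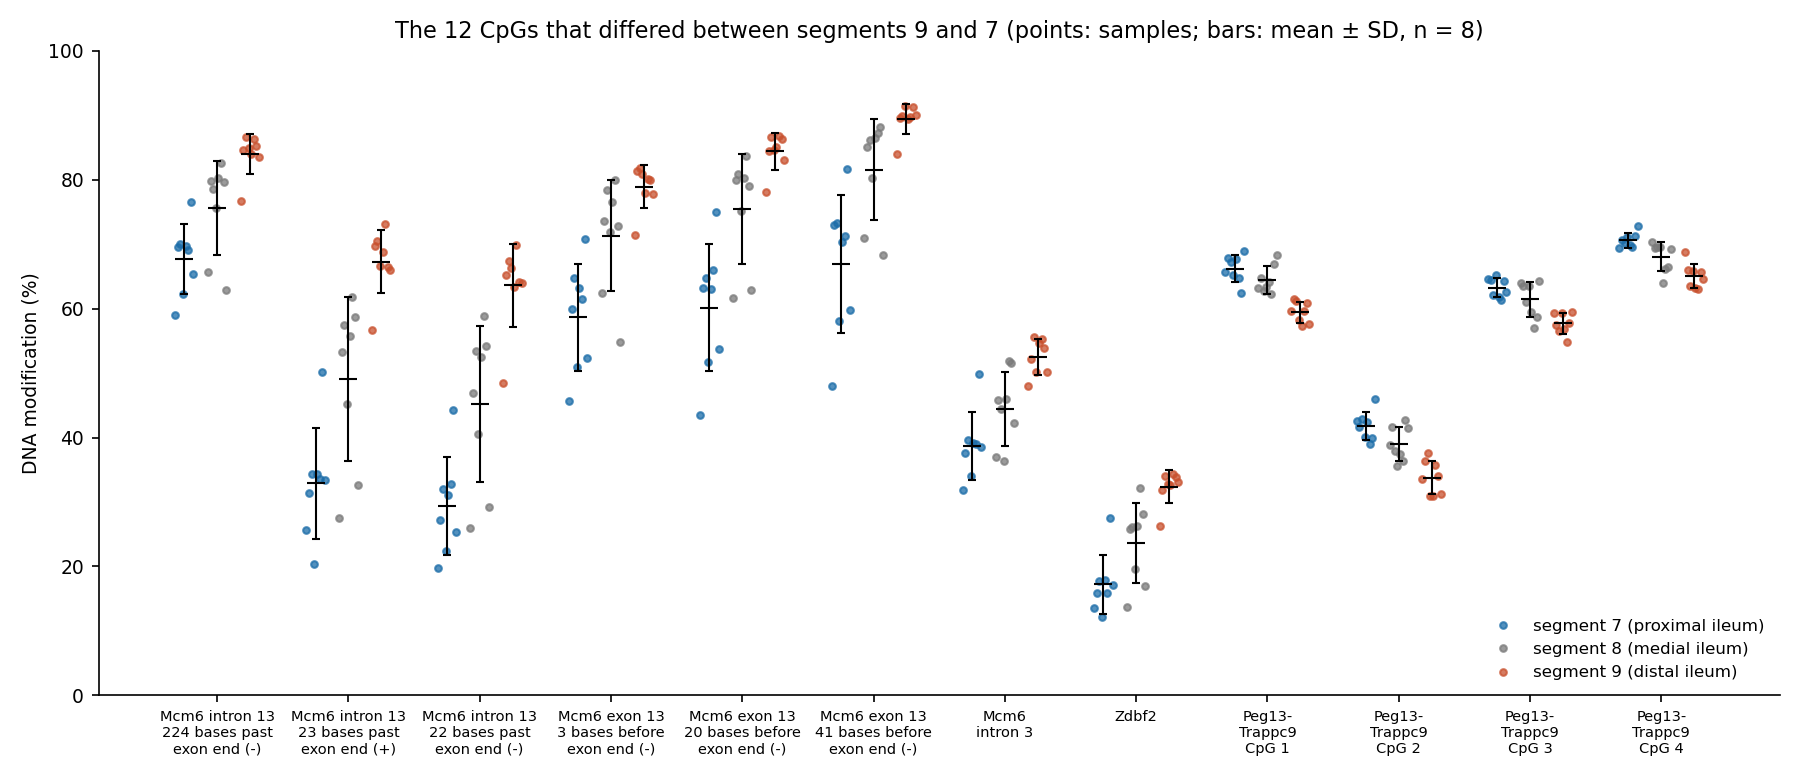
DNA modification (%) in each of the 24 ileal samples at the 12 CpGs that differed between segments 9 and 7 (points, samples; bars, mean ± SD over 8 samples per segment). The 7 *Mcm6* sites and *Zdbf2* rise and the 4 *Peg13*–*Trappc9* sites fall from segment 7 to segment 9, with the mean of segment 8 between the other means at all 12.

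The medial ileum lay between its neighbours at the sites that separated them. At 12 of the 12 called CpGs, and at 82 of the 82 that passed Benjamini-Hochberg adjustment, the mean of segment 8 fell between those of segments 7 and 9, compared with 38.8% of all tested CpGs. Both sets were chosen on the 7 to 9 difference, which by itself favours such an order, so these shares are descriptions. At the called CpGs segment 8 had covered 45.99% of the distance at the median. No step reached a threshold on its own. From segment 7 to 8, 0 of 1542 CpGs passed by Bonferroni or Benjamini-Hochberg adjustment (96 had an unadjusted p under 0.05), and from segment 8 to 9 again 0 of 1542 passed (140 unadjusted) by the quasi-binomial F test. Among the 80 features and targets 0 passed in either step, with 11 and 7 at an unadjusted exact permutation p under 0.05. *Mcm6* exon 13 had a step of 10.1 points from 7 to 8 (exact permutation p = 0.0152, Benjamini-Hochberg 0.244) and of 5.50 points from 8 to 9 (exact permutation p = 0.00606, Benjamini-Hochberg 0.242). At the CpG 22 bases into intron 13 the steps were 15.8 and 18.4 points. Segment 8 was also the segment with the widest spread at this site: replicates 1 and 8 stood at 25.96% and 29.3%, among the values of segment 7, and the other 6 between 40.5% and 58.8%.

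The mean over all 665 tested CpGs of the locus was 78.8% ± 0.434 in segment 7, 79.3% ± 0.653 in segment 8 and 79.9% ± 0.276 in segment 9. Segment 9 exceeded segment 7 by 1.08 points (exact permutation p = 0.000155). The mean over the 887 CpGs of the other targets was 51.995%, 52.02% and 51.97% in segments 7, 8 and 9, with a difference between segments 9 and 7 of -0.0282 points (exact permutation p = 0.879).

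Samples of a segment were further apart in the proximal than in the distal ileum at some features, but no difference in spread passed adjustment over the 11 features and targets that differed in level. In *Mcm6* exon 13 the mean absolute deviation from the segment median was 5.98 points in segment 7 and 0.883 in segment 9 (exact permutation p = 0.0370, Benjamini-Hochberg 0.203). The values of segment 9 were near 82%, closer to the upper end of the scale, and whether the level bears on the spread was not tested. In *Peg13*–*Trappc9* the order was opposite, 0.241 in segment 7 and 0.877 in segment 9 (exact permutation p = 0.0221, Benjamini-Hochberg 0.203). Of the 11, 0 passed Benjamini-Hochberg adjustment and 2 had an unadjusted exact permutation p under 0.05.

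The step from segment 7 to segment 8 was also measured in P90 mice, which entered none of the fits above. Segment 9 was not analysed here at that age. After adjustment 0 of 80 features and targets passed in either milk group (0% called; 2 with lactose-free milk and 12 with LAC milk had an unadjusted exact permutation p under 0.05). Values lay close to those at P60 at *Mcm6* exon 13. With lactose-free milk it stood at 62.2% ± 6.80 in segment 7 (n = 6) and 75.6% ± 5.42 in segment 8 (n = 7), a difference of 13.4 points (exact permutation p = 0.00408, Benjamini-Hochberg 0.233). With LAC milk it stood at 61.6% ± 8.00 and 75.2% ± 5.14 (n = 7 each), a difference of 13.6 points (exact permutation p = 0.0035, Benjamini-Hochberg 0.163). *Mcm6* intron 13 differed by 9.51 and 9.40 points (Benjamini-Hochberg 0.233 and 0.210, exact permutation test). At the CpG 22 bases into intron 13, segments 7 and 8 had means of 28.5% and 47.95% with lactose-free milk and of 35.8% and 54.8% with LAC milk (exact permutation p = 0.0035 and 0.0134, unadjusted). At all 12 CpGs called at P60 the P90 step from 7 to 8 had the direction of the P60 difference between 7 and 9 in both milk groups. An unadjusted exact permutation p was under 0.05 at 9 of the 12 with lactose-free milk and at 6 with LAC milk. The matching shares over all tested CpGs were not computed, so these counts are descriptions and do not set the 12 apart from other CpGs. The 12 include both strands of 1 CpG and neighbours read on 1 strand to nearly the same depth, so they are not 12 independent sites. The *Zdbf2* CpG rose from 12.9% to 21.5% and from 20.2% to 29.1%, while chr15:72804074 differed by only -0.0239 points with LAC milk (45.4% in both segments). All LAC samples were sequenced in lane 1 and most lactose-free samples in lanes 6 and 7, so the milk groups were not compared with each other.

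**Figure D4:**
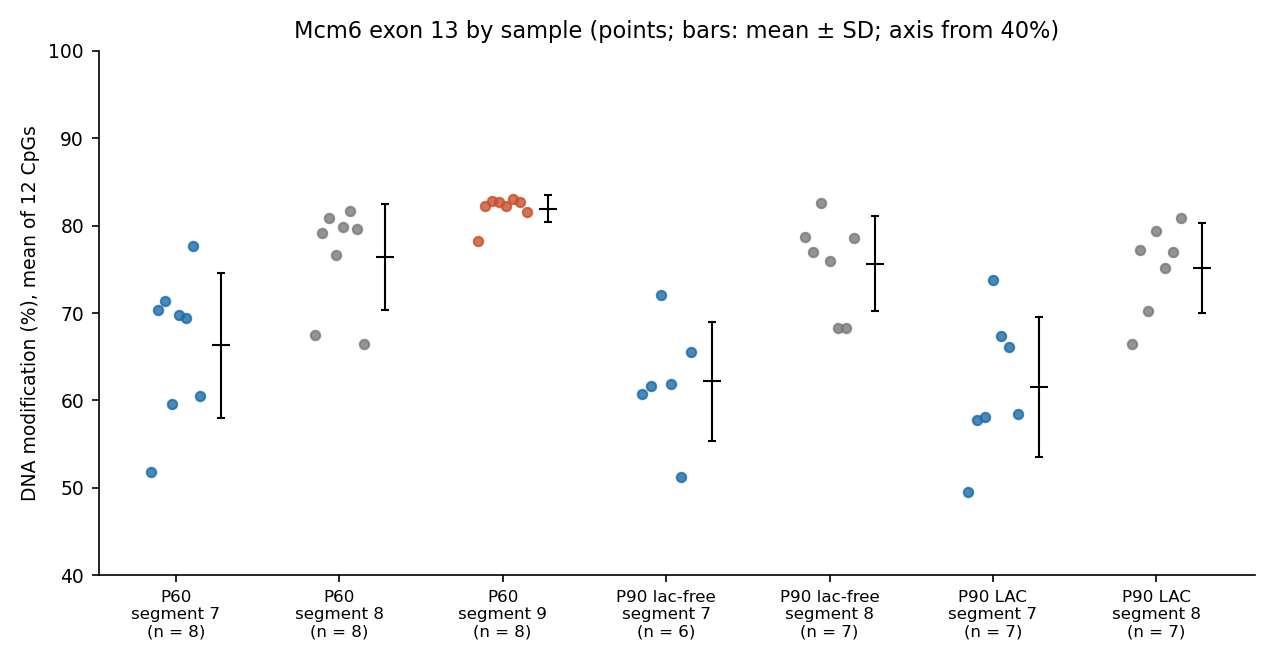
Mean DNA modification (%) of the 12 tested CpGs of *Mcm6* exon 13 in each sample (points; bars, mean ± SD) of the P60 segments 7, 8 and 9 and of segments 7 and 8 in P90 mice given lactose-free or LAC milk, on an axis that starts at 40%. In every set segment 7 is spread widely, from 49.5% to 77.7%, segment 8 lies mostly above it, and the 8 samples of P60 segment 9 lie between 78.3% and 83.03%.

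The rises at *Mcm6* exon 13 and intron 13 were tested against a step over as many segments within the jejunum. From segment 3 to segment 5 of the P60 mice, the CpG 22 bases into intron 13 went from 12.5% ± 2.51 to 14.8% ± 5.12 on the reverse strand, a difference of 2.28 points beside 34.2 in the ileum. This CpG was picked for its ileal difference in the same ileal samples, which by itself favours a larger ileal step. A quasi-binomial F test of the difference between the steps, on the log-odds scale, called 12 of 1533 CpGs after Bonferroni adjustment (0.783%) and 63 after Benjamini-Hochberg adjustment (4.11%), the former including both strands of this CpG (p = 0.00159 on the reverse strand and 0.00444 on the forward strand). Along the whole small intestine, the CpG 22 bases into intron 13 had reverse-strand means of 12.8%, 13.2%, 12.5%, 12.4% and 14.8% in segments 1 to 5. The mean was 21.8% in segment 6, and 29.4%, 45.2% and 63.6% in segments 7, 8 and 9. In *Lct* intron 2, chr1:128314520 (reverse strand) had means of 34.7%, 27.7%, 27.2%, 32.5%, 40.3%, 48.1%, 55.6%, 64.3% and 75.5% in segments 1 to 9.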

How the data were processed

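The authors trimmed the reads (Trimmomatic 0.32 per the labels) and mapped them with Bismark to GRCm38. They deposited, for each cytosine and strand of each sample, counts of reads called modified and unmodified, without normalization. Removal of duplicate reads is not given in the sources used here, so reads need not be independent molecules. In 147 of 148 files the first line could not be read and was left out.

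Percent modification was computed from the counts where a cytosine had more than 30 reads, in at least 3 samples per group. Each CpG was tested on each strand by a quasi-binomial F test (1 dispersion per CpG and strand, not below 1), Bonferroni 0.01 over 1552 CpGs with strands counted separately. Means over annotated features (GENCODE vM21) and imprinted targets (CpGs within 3000 bases of each other joined) with at least 3 CpGs were compared with two-sided exact permutation tests, Benjamini-Hochberg 0.05 over 80 features and targets. All 3762 CpGs, with strands counted separately, held CG in the reference, from which sequences were taken (RefSeq). Sequencing lanes are those carried in the deposited file names. Scripts were tested on simulated data. NumPy 2.4.6, SciPy 1.17.1, pandas 2.3.3, Matplotlib 3.10.9 and limma 3.58.1 (R 4.3.3) were used.

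Samples were grouped by label. The labels do not say which samples came from separate mice, and the series' description gives 5 to 6 per segment for the adults, where 8 samples are present. Some samples of a segment may therefore share a mouse, and p-values, which rest on the spread between these samples, would then be too small. Samples of different segments may also share a mouse, and the main tests did not model such pairs. Read counts of every pair of samples within a segment differed by more than binomial sampling of independent reads would give. Since reads need not be independent molecules, this cannot show that the samples are separate preparations or mice. Samples that share a replicate number across segments were not treated as paired, since only 14 of 24 such pairs deviated together (r over 0.1), nor were samples that share a run of library numbers in their titles (17 of 24 pairs). CpGs named singly were those past the threshold, the leading CpG of each feature that passed, and the CpGs at the start of *Lct*; others described by position were chosen after their values were seen. The samples, lists and tests were chosen with earlier results of these data known. Alternatives were other read minimums, corrections, fits with lane or replicate number, limma, pooled reads, strands added and each sample left out.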

Additional observations from a re-analysis of the deposited data

Results flagged for a closer look

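Single samples stood apart within their segment of 8 in 17 of 102 checks, by a gap to the nearest sample larger than Dixon's 95% critical value; chance gives about 1 in 20, and the sites checked are not independent. In 11 of the 17, the sample was replicate 1 of segment 9, lowest in its segment. It read 48.5% and 56.7% on the reverse and forward strands of the CpG 22 bases into *Mcm6* intron 13, where the next samples read 63.4% and 65.95%. It read 76.8% at chr1:128337892, and 71.4%, 78.03% and 83.98% at the 3 called CpGs of *Mcm6* exon 13. It also read 63.4% at the leading CpG of *Lct* intron 2, 26.3% at the *Zdbf2* CpG, 78.3% over *Mcm6* exon 13, 73.3% over *Mcm6* intron 13 and 87.5% over *Lct* exon 9. In 3 of the 17, the sample was replicate 7 of segment 7, highest in its segment, with 50.1% at chr1:128338093, 49.8% at chr1:128353235 in *Mcm6* intron 3 and 27.5% at the *Zdbf2* CpG. The remaining 3 were replicate 1 of segment 7 and replicate 4 of segment 9, lowest over *Lct* exon 1 at 85.8% and 88.5%, and replicate 8 of segment 7, highest over *Mcm6* intron 1 at 11.4%. Their cause was not tested.

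At 12 CpGs the difference between segments 9 and 7 was not that between segments 5 and 3 of the jejunum, by the quasi-binomial interaction test with Bonferroni adjustment. Both strands of the CpG 22 bases into *Mcm6* intron 13 rose by 34.2 and 34.4 points in the ileum and by 2.28 and 2.68 in the jejunum. At 2 CpGs of *Lct* exon 8, chr1:128299886 and chr1:128300143, the ileal differences were 3.10 and 4.56 points and the jejunal ones -3.11 and -4.65. The other 8 lay upstream of *Meg3*, an imprinted noncoding RNA gene on chromosome 12. Their ileal differences were 2.21, 1.38, 3.71, 4.11, 2.53, 3.30, 1.33 and 8.26 points in order of position, and the jejunal ones ran from -14.6 to -3.91.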

How the results depend on the processing

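No difference changed sign under any alternative. Other corrections, fits with lane or replicate number and limma changed only the p-value. The difference between group means was the same there, so its sign could not change. Of 934 alternative values for named CpGs and features, 702 stayed on the same side of the threshold with the same direction. These include CpGs and features that had not passed and again did not pass. Among the called CpGs, the call held in as few as 6 of 27 alternatives (chr15:72808369). The 12 CpGs called between segments 9 and 7 became 82 with Benjamini-Hochberg adjustment, 2 with Bonferroni over CpGs and CpH sites together and 7 with lane as a covariate (6 of them among the 12). With the replicate number as a block there were 5, and with runs of library numbers in the titles as the block 2. The count was 12 at more than 10 or 100 reads and without CpGs only under probe arms, 13 in 1 fit of all 24 samples and 13 with limma. Leaving out 1 sample gave 4 to 13, with fewer than 8 in 12 of 16 settings: for segment 7, 5 without replicate 2, 3 or 5, 6 without 4 or 8 and 7 without 6; for segment 9, 4 without replicate 5, 5 without 4 or 7 and 7 without 2, 6 or 8. The CpG at chr1:128338094 held in 28 of 28 alternatives.

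The 10 features became 18 with pooled reads and 6 to 11 with 1 sample left out (6 without replicate 1 or 2 of segment 7 or replicate 3 or 7 of segment 9). The 1 target became 0 or 1. With either replicate block both counts were 0. That exact sign-flip test over 8 pairs cannot go below p = 0.00781, which after Benjamini-Hochberg adjustment stood at 0.0893, so it says nothing about stability. Replicate numbers are not shown to pair samples: same-numbered samples correlated by -0.0976 to 0.411, and 11 of 24 samples correlated best with their own number. For runs of library numbers in the titles r was -0.129 to 0.411, and 12 of 24 samples correlated best with their own run. The number of features differing in spread was 0, and 0 or 1 with 1 sample left out (1 without replicate 6 of segment 9). The 12 CpGs differing between the ileal and jejunal steps became 63 with Benjamini-Hochberg adjustment, 13 with lane and 14 with the replicate block. The steps from 7 to 8 and from 8 to 9, the CpH sites and the P90 steps gave 0 throughout.

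Depth was low on the reverse strand of the *Mcm6* intron 3 CpG, with 41 reads in its shallowest sample and 218.5 at the median, and of the *Lct* start, with 86 and 327.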

Other observations

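Within a segment, samples high at the CpG 22 bases into *Mcm6* intron 13 (reverse strand) were mostly also high at the *Zdbf2* CpG, which lies on the same chromosome but far outside the locus. Pearson's r was 0.917, 0.976 and 0.957 in segments 7, 8 and 9 (8 samples each, exact permutation p = 0.00382, 4.96e-05 and 0.00913; Benjamini-Hochberg 0.0137, 0.000744 and 0.0196 over 15 such relations), and Spearman's rho was 0.762, 0.976 and 0.738 (exact permutation p = 0.0368, 0.000397 and 0.0458; Benjamini-Hochberg 0.0689, 0.00595 and 0.0764). Without the 2 samples farthest from the median r was 0.694, 0.945 and 0.322, so that in segment 9 the relation rests on those samples. With the leading CpG of *Lct* intron 2, r was 0.784, 0.952 and 0.957 and fell to 0.665, 0.957 and 0.583 without the 2 farthest samples (rho 0.833, 0.905 and 0.690; exact permutation p of r = 0.0226, 0.000694 and 0.00456, and of rho 0.0154, 0.00456 and 0.0694; Benjamini-Hochberg 0.0361, 0.00347 and 0.0137 for r and 0.0384, 0.0228 and 0.104 for rho). With the *Peg13*–*Trappc9* CpG at chr15:72804022, r was -0.516, -0.315 and 0.0628 (exact permutation p = 0.192, 0.463 and 0.915; Benjamini-Hochberg 0.240, 0.496 and 0.915), and rho was -0.429, -0.310 and 0.333 (exact permutation p = 0.299, 0.462 and 0.428). These relations were chosen after the values were seen. Where along its segment each piece of ileum was taken, and which samples came from the same mouse, is not given in the labels, and the part of either in these relations was not tested.

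Samples with the same replicate number in different segments also deviated in the same direction at the features that differed most. In *Mcm6* exon 13, r was 0.809 between segments 7 and 8, 0.774 between 8 and 9 and 0.766 between 7 and 9 (8 numbers each, exact permutation p = 0.0136, 0.0217 and 0.0207, and Benjamini-Hochberg 0.0522 for each over 12 such relations). Spearman's rho was 0.571, 0.810 and 0.548 (exact permutation p = 0.151, 0.0218 and 0.171; Benjamini-Hochberg 0.227, 0.0871 and 0.228), and without the 2 farthest samples r was 0.789, 0.345 and 0.722. Of the 12 relations 1 passed adjustment, *Lct* intron 2 between segments 8 and 9, with r of 0.897 (exact permutation p = 0.000992, Benjamini-Hochberg 0.0119), rho of 0.881 (exact permutation p = 0.00724, Benjamini-Hochberg 0.0869) and r of 0.706 without the 2 farthest samples. These relations, too, were chosen after the values were seen.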
